A study of Arabidopsis thaliana with 8 samples.

Results

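The plastid genome of Arabidopsis thaliana carries the genes described here. They were chosen as every locus of the deposited read tables whose identifier starts with ATCG, which gave 88 of 27628 loci. That rule uses no measured value. RNA was sequenced from whole Col-0 seedlings of 4 genotypes, with 2 libraries each that the labels call biological replicates. The 4 were agb1 (allele agb1-2), hy5 (the labels name no allele), the cry1 cry2 double mutant and wild type (WT). All seedlings were treated alike: seeds were kept on 1/2 MS medium with 1% sucrose for 3 days at 4 °C, then 12 h in white light, and then grown for 4.5 days in blue light. AGB1 encodes a G protein beta subunit, HY5 a bZIP factor that promotes light responses, and CRY1 and CRY2 the cryptochrome photoreceptors for blue light. The design text gives the purpose as finding genes under blue-light signalling through cryptochromes and HY5 and under G protein signalling through AGB1.

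Plastid genes encode core subunits of the photosynthetic complexes, the large subunit of Rubisco, part of the plastid ribosome and the core of a bacterial-type RNA polymerase. That plastid-encoded polymerase reads most photosynthesis genes, and nuclear genes supply its sigma factors and associated proteins. A phage-type polymerase, RPOTp, is encoded in the nucleus and reads genes such as rpoB and accD. The sigma factor SIG5 and the psbD light-responsive promoter are the best known link from blue light to plastid transcription. Most plastid genes lie in polycistronic units, so neighbouring loci share transcripts.

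Promoter stretches of 3 plastid genes whose values are described below are shown first, because they differ in type. The psbD stretch holds the AAG box of the light-responsive promoter, and the psbA and rbcL stretches hold a pair of elements spaced as in bacterial promoters. They were read from the RefSeq TAIR10.1 plastid sequence at Pltd:31681-31757 (plus strand, psbD), Pltd:1530-1594 (minus strand, psbA) and Pltd:54718-54774 (plus strand, rbcL). They run 5′ to 3′ on the strand of the gene, and capitals mark the letters searched for.
psbD: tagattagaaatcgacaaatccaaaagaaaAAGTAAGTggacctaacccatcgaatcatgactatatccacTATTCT
psbA: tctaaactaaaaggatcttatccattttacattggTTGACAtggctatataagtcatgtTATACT
rbcL: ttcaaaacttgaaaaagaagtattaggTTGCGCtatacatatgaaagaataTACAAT
The capitals begin 1000 and 959 bases before the first coding base in psbD, 115 and 91 bases before it in psbA, and 213 and 189 bases before it in rbcL. Searched on both strands of the 1100 bases before each of 83 plastid coding starts, windows that overlap each other, AAGTAAGT was in 7 (8.43%) and TATTCT in 72 (86.7%). In the 250 bases before each start, TTGACA was in 13 (15.7%), TATACT in 14 (16.9%), TTGCGC in 1 (1.2%) and TACAAT in 21 (25.3%). A match describes the letters and shows no binding.

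Plastid loci took a smaller share of the reads in hy5 and in cry1 cry2 than in WT, and in agb1 the libraries fell on either side of WT. The share was 2.103% and 3.00% of counted reads in agb1, 1.76% and 1.94% in hy5, 1.70% and 1.68% in cry1 cry2, and 2.48% and 2.30% in WT. Both hy5 and both cry1 cry2 libraries lay below both WT libraries. The mean was 1.85 ± 0.128% in hy5 and 1.69 ± 0.0122% in cry1 cry2, against 2.39 ± 0.125% in WT (SD, n = 2 each). The two-sided exact permutation p was 0.333 for each of these, the smallest that 2 against 2 libraries allow. In agb1 the mean was 2.55 ± 0.634%, and the exact permutation p was 1. In RNA from whole seedlings, fewer green cells and less plastid RNA per cell cannot be told apart. Nor can a different recovery of plastid RNA between libraries, since the labels do not state how RNA was selected.

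**Figure D1:**
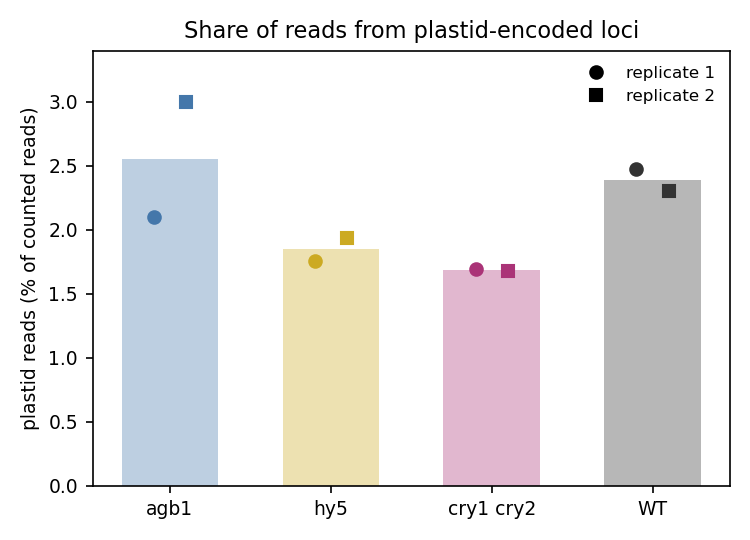
Reads from the 88 plastid loci as a percentage of all counted reads, by genotype; bars are means and points are the 2 libraries of each genotype. The cry1 cry2 libraries sit at 1.70% and 1.68% and the agb1 libraries at 2.103% and 3.00%, on either side of the WT libraries at 2.48% and 2.30%.

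Total counted reads per library ran from 15651218 to 23098347, of which 265177 to 572707 were plastid reads, so counting error was small (95% exact binomial intervals of the shares reach at most 0.0085 percentage points, for counting error alone). The CRY2 transcript was near absent in cry1 cry2 (0.166 and 0.227 CPM, against 224 and 218 CPM in WT), CRY1 and AGB1 were lowered in their mutants (log2 fold changes -1.32 and -0.67), and HY5 was not changed in hy5 (-0.09 ± 0.10 SE), which neither checks nor contradicts that label. CPM are read counts brought to a common library size with library factors. Nuclear markers moved with genotype too. The summed level of 6 green tissue genes was 46317 to 46687 CPM in agb1, 16158 to 16249 CPM in hy5 and 4416 to 4575 CPM in cry1 cry2, against 31018 to 33151 CPM in WT. LHCB1.3 was the largest part of that sum in each genotype (6143 and 6237 CPM in hy5, 21892 and 20182 CPM in WT). Of the 6 genes, 5 rose in agb1 (8.76% of all tested loci did) and 6 fell in cry1 cry2 (25.8%). In hy5 3 rose (RBCS1A, RCA and GAPB, 0.17 to 0.46) and 3 fell (LHCB1.3, LHCA1 and PSAD2, -1.23 to -1.77). These stand beside 22.6% and 20.2% of all tested loci, and the hy5 sum does not stand for the list. The summed level of 12 root-enriched genes was 3060 to 3080 CPM in agb1, 7004 to 7167 CPM in hy5 and 7352 to 7483 CPM in cry1 cry2, against 4483 to 4493 CPM in WT. Of the 11 root genes tested, 1 rose and 6 fell in agb1 (8.76% and 8.41% of all tested loci), 5 rose and 5 fell in hy5, and 6 rose in cry1 cry2 (25.6%). NRT2.1 was the root gene not tested, with 0 CPM in both WT libraries. The part of tissue makeup in the plastid results was not tested.

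All 88 plastid loci passed the filter on low counts; the lowest count was 15 reads, at petN. Called means an adjusted p under 0.05 with edgeR over 20695 loci. In cry1 cry2, 64 plastid loci fell and 3 rose against WT, beside 25.8% of all tested loci called lower and 25.6% called higher. The median log2 fold change of the 88 was -0.46, against 0.00 over all loci. In hy5, 43 plastid loci fell and 9 rose, beside 20.2% and 22.6% of all loci, and the median was -0.26. In agb1, 3 rose and 0 fell (17 and 0 at an unadjusted p under 0.05), beside 8.76% and 8.41% of all loci, and the median was 0.15. With DESeq2, 35 fell and 0 rose in cry1 cry2 (42 and 0 unadjusted), beside 19% and 17.4% of all loci that DESeq2 tested. In hy5 DESeq2 called 24 lower and 2 higher, beside 12.9% and 16% of all loci. In agb1 DESeq2 called 0 higher and 0 lower (2 and 0 unadjusted), beside 5.44% and 5.14% of all loci. The 3 comparisons share the WT libraries. When WT replicate 1 was left out, 41 loci were called lower in cry1 cry2, with a median of -0.31, and the hy5 median was -0.09. An F test over all 4 genotypes called 75 of the 88, beside 69.7% of all loci.

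A second scale sets each plastid locus against the plastid total, with library factors taken over plastid loci, which centre the medians near 0 by construction. It shows which plastid transcripts moved more or less than the rest. On that scale 23 loci were lower and 19 higher in cry1 cry2, 26 lower and 28 higher in hy5, and 2 lower and 2 higher in agb1. This scale moves the plastid fold changes of hy5 and cry1 cry2 upward, so loci lower on it lie lower still on the scale of all loci. That all 23 loci lower in cry1 cry2 and all 26 in hy5 were also called lower there follows largely from this shift. Of the loci higher on the plastid-total scale, 3 of 19 in cry1 cry2 and 9 of 28 in hy5 were also called higher on the scale of all loci. The medians on the plastid-total scale were -0.01 in cry1 cry2, 0.01 in hy5 and -0.00 in agb1.

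**Figure D2:**
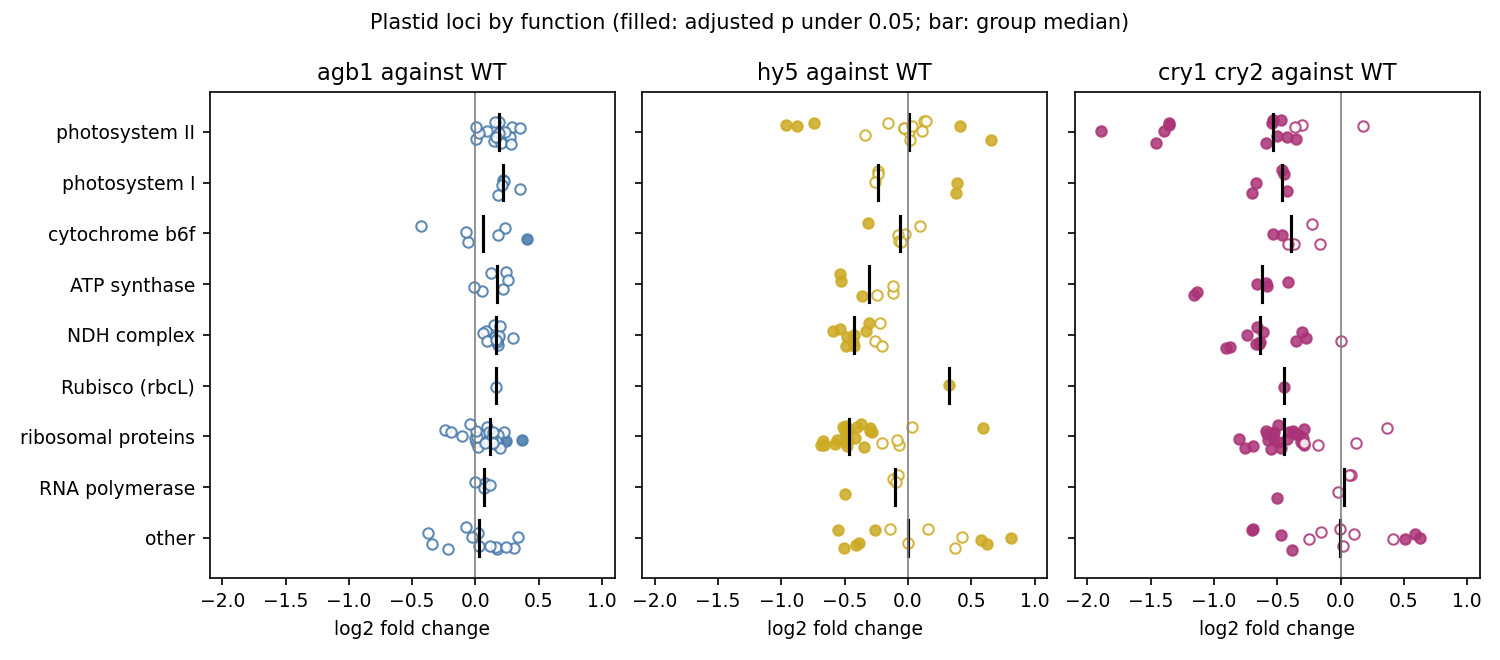
Log2 fold change against WT of each plastid locus, grouped by function, in agb1, hy5 and cry1 cry2; filled points have an adjusted p under 0.05 and bars are group medians. Photosystem II loci reach from 0.18 down to -1.89 in cry1 cry2, while the agb1 points lie between -0.43 and 0.41.

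Photosystem II genes held the largest falls in cry1 cry2. Of 15 loci, 12 fell and none rose there (median -0.53), beside 25.8% of all tested loci called lower and 25.6% called higher. In hy5 3 fell and 2 rose (median 0.01), beside 20.2% and 22.6%, which does not set the group apart in hy5. In agb1 none was called, beside 8.76% called higher and 8.41% called lower. The same shares of all tested loci stand beside the group counts that follow. psbD, which encodes the D2 reaction centre protein, had 2012 and 3168 CPM in agb1, 1181 and 1362 CPM in hy5, 826 and 792 CPM in cry1 cry2, and 2210.3 and 2038 CPM in WT. The hy5 and cry1 cry2 libraries lay below both WT libraries and did not overlap each other, whereas the agb1 libraries spanned WT. The log2 fold change against WT was -0.74 ± 0.10 SE in hy5 (adjusted p = 1.1e-06) and -1.39 ± 0.11 in cry1 cry2 (adjusted p = 2.5e-12), that is 2.63-fold lower in cry1 cry2.

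The other 2 members of the psbD unit went the same way. psbC, for the CP43 antenna protein, had 2086 and 3472 CPM in agb1, 1288 and 1220.0 CPM in hy5, 928 and 868 CPM in cry1 cry2, and 2485 and 2122 CPM in WT (-0.88 ± 0.11 in hy5 and -1.36 ± 0.12 in cry1 cry2). psbZ, a small photosystem II subunit, had 59.5 and 100.3 CPM in agb1, 43.3 and 37.8 CPM in hy5, 20.3 and 22.2 CPM in cry1 cry2, and 86.5 and 70.8 CPM in WT (-0.96 ± 0.13 in hy5 and -1.89 ± 0.14 in cry1 cry2). In both, the groups hy5, cry1 cry2 and WT did not overlap. psbD and psbC share 53 coding bases on the same strand, so some of their reads may be counted for either. Together the 3 loci took 18.6% and 20.9% of plastid reads in agb1, 14.0% and 13.3% in hy5, 11.5% and 11.2% in cry1 cry2, and 18.7% and 18.2% in WT. Their falls held relative to the plastid total as well (-0.48 to -0.69 in hy5, -0.92 to -1.44 in cry1 cry2).

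psbA and psbM fell in cry1 cry2 and were not called in hy5. psbA, for the D1 reaction centre protein, had 193 and 308 CPM in agb1, 247 and 264 CPM in hy5, 98.8 and 85.002 CPM in cry1 cry2, and 235 and 234 CPM in WT. Its log2 fold change was 0.12 ± 0.11 in hy5 (adjusted p = 0.36) and -1.35 ± 0.11 in cry1 cry2 (adjusted p = 1.5e-11). psbM, a small subunit, had 354 and 360 CPM in agb1, 348 and 359 CPM in hy5, 126 and 129 CPM in cry1 cry2, and 314 and 387 CPM in WT. Its log2 fold change was 0.01 ± 0.07 in hy5 and -1.46 ± 0.07 in cry1 cry2 (adjusted p = 2.6e-17). The direct test of cry1 cry2 against hy5 gave -1.48 ± 0.11 for psbA and -1.47 ± 0.07 for psbM (adjusted p = 3.1e-12 and 2.9e-17), so the 2 mutants differed at both loci.

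The remaining photosystem II loci moved less. psbB, for the CP47 antenna protein, had 357 and 582 CPM in agb1, 399 and 403 CPM in hy5, 348 and 278 CPM in cry1 cry2, and 446 and 351 CPM in WT. All cry1 cry2 values lay below the WT values, but only just, and the fall of 0.35 on the log2 scale (adjusted p = 0.019) was lost without WT replicate 1 (-0.17), without cry1 cry2 replicate 2 (-0.20), with library sizes alone (-0.17) and with DESeq2. psbF, part of cytochrome b559, rose in hy5 (29.5 and 30.2 CPM in hy5, against 26.2 and 18.5 CPM in WT; 0.41 ± 0.14, adjusted p = 0.017). That call was lost without WT replicate 2 (0.19), without either hy5 replicate (0.43 and 0.39) and with DESeq2. psbN, needed for photosystem II assembly in tobacco, lies on the strand opposite to the psbB unit, and since the strand setting of the counting is not given its reads cannot be told apart from those of that unit. It rose in hy5 (7.86 and 11.1 CPM in hy5, against 6.66 and 5.42 CPM in WT; 0.65 ± 0.16), and this was lost without hy5 replicate 2 (0.37).

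**Figure D3:**
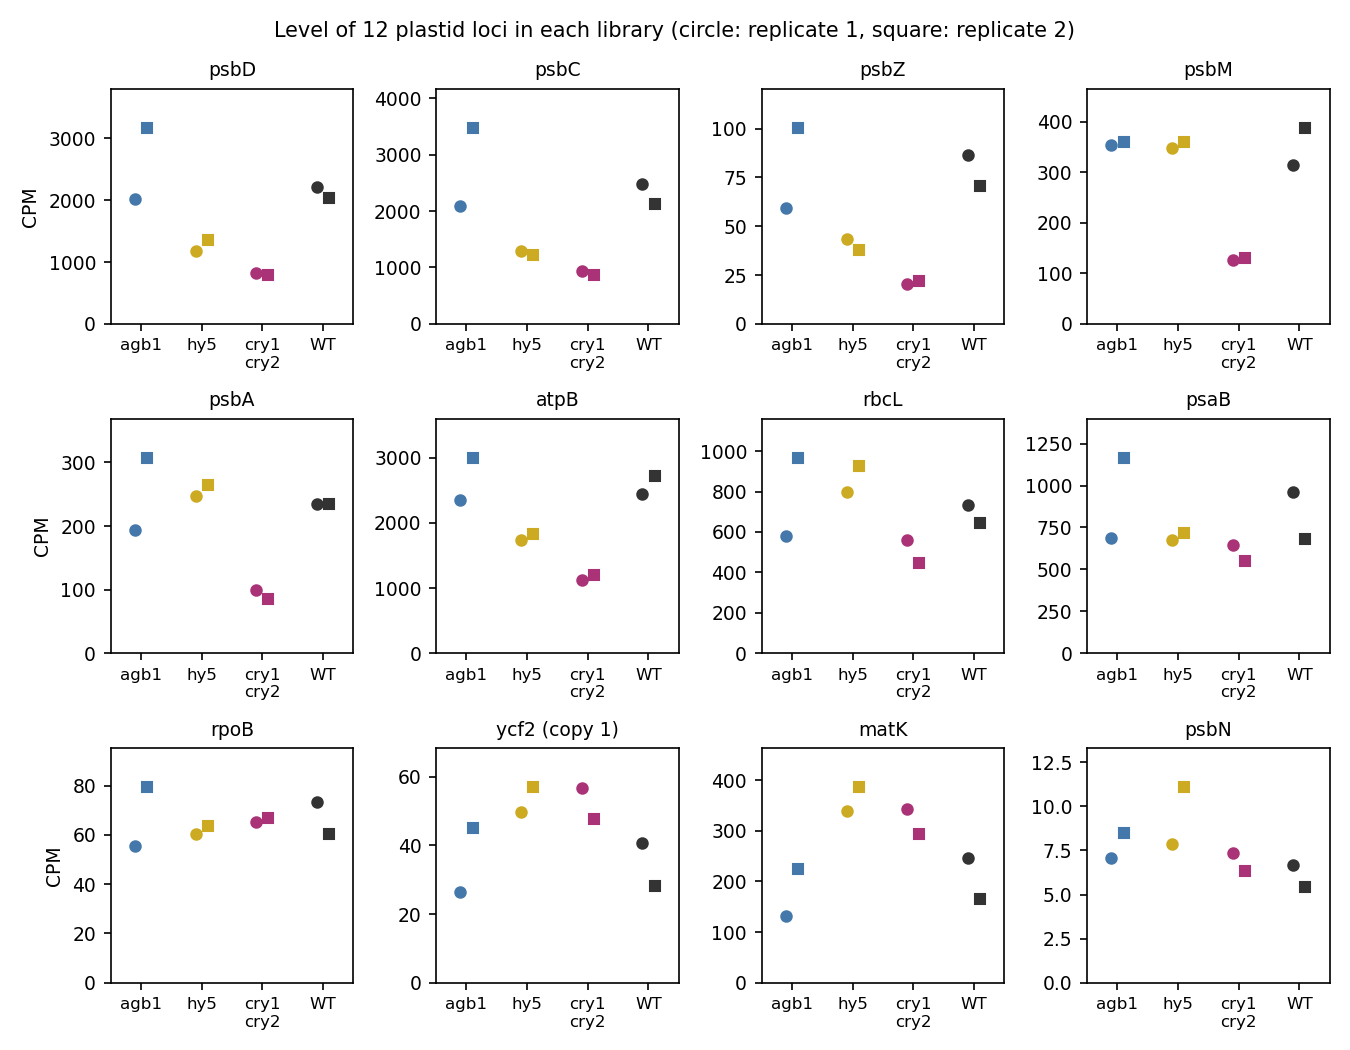
Level in CPM (linear axes from 0) of 12 plastid loci in each library, by genotype; circles are replicate 1 and squares replicate 2. For psbD, psbC and psbZ the hy5 points lie between the cry1 cry2 and WT points, for psbA and psbM the hy5 points lie beside WT, and for matK the hy5 and cry1 cry2 points lie above WT.

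In photosystem I and the cytochrome b6f complex the falls in cry1 cry2 were smaller. All 5 photosystem I loci fell there (median -0.46, and -0.01 relative to the plastid total), and in hy5 2 rose and none fell. psaB, a reaction centre protein, had 688 and 1167 CPM in agb1, 678 and 718 CPM in hy5, 646 and 548 CPM in cry1 cry2, and 961 and 680.4 CPM in WT. The WT libraries differed widely, and 1 hy5 library lay within their range and 1 just below it. The fall of psaB in cry1 cry2 (-0.46 ± 0.13, adjusted p = 0.0051) and that of its partner psaA (-0.42 ± 0.13) were both -0.19 and not called without WT replicate 1, and neither was called with DESeq2 or with library sizes alone (-0.28 and -0.24).

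psaJ, a small photosystem I subunit, behaved differently in the 2 mutants. It had 24.9 and 30.3 CPM in agb1, 26.9 and 34.6 CPM in hy5, 14.1 and 15.07 CPM in cry1 cry2, and 24.7 and 22.6 CPM in WT. It rose in hy5 (0.38 ± 0.10, adjusted p = 0.0022, lost at 0.18 without hy5 replicate 2) and fell in cry1 cry2 (-0.70 ± 0.11, adjusted p = 4.1e-06). The direct difference of cry1 cry2 from hy5 was -1.09 ± 0.11 (adjusted p = 1.4e-09).

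Of the 6 cytochrome b6f loci, 2 fell in cry1 cry2, 1 fell in hy5 and 1 rose in agb1. Beside 25.8%, 20.2% and 8.76% of all tested loci called in those directions, these counts do not set the group apart. petA, for cytochrome f, had 338 and 550.1 CPM in agb1, 255 and 282 CPM in hy5, 239 and 222 CPM in cry1 cry2, and 383 and 283 CPM in WT. The hy5 libraries only just cleared the lower WT library, and the fall in hy5 (-0.31 ± 0.12, adjusted p = 0.043) was lost without WT replicate 1 (-0.08) and without either hy5 replicate (-0.24 and -0.39). In cry1 cry2 the fall was -0.53 ± 0.12 (adjusted p = 0.00071), lost without WT replicate 1 (-0.29). With DESeq2 petA was called in none of the 3 mutants. petB, for cytochrome b6, was not called in any mutant (-0.16 ± 0.15 in cry1 cry2), and relative to the plastid total it was higher there (0.29).

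ATP synthase loci fell as a group in cry1 cry2, with 6 of 6 called (median -0.62), and 3 of 6 fell in hy5 (median -0.30). atpB, for the beta subunit, had 2348 and 2999 CPM in agb1, 1729 and 1828 CPM in hy5, 1121 and 1197 CPM in cry1 cry2, and 2443 and 2719 CPM in WT. As for psbD, the cry1 cry2, hy5 and WT libraries formed 3 separate steps. The log2 fold change was -0.54 ± 0.07 in hy5 (adjusted p = 3.9e-07) and -1.16 ± 0.07 in cry1 cry2 (adjusted p = 2.5e-14). atpE, for the epsilon subunit on the same transcript, had 722 and 888 CPM in agb1, 493 and 625 CPM in hy5, 353 and 385 CPM in cry1 cry2, and 749.6 and 869.8 CPM in WT. Its fold changes (-0.53 in hy5, -1.13 in cry1 cry2) were close to those of atpB, with which it shares 4 coding bases.

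The other ATP synthase unit moved less. atpA, for the alpha subunit, had 1040.1 and 1749.7 CPM in agb1, 939 and 1086 CPM in hy5, 848 and 750.0 CPM in cry1 cry2, and 1426 and 972 CPM in WT. It fell in cry1 cry2 (-0.59 ± 0.14, adjusted p = 0.00072), lost without WT replicate 1 (-0.28) and with DESeq2, and was not called in hy5 (-0.24 ± 0.14). atpI, for a membrane subunit, fell in both (-0.36 ± 0.13 in hy5 and -0.42 ± 0.13 in cry1 cry2).

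The NDH complex, which feeds electrons back into the photosynthetic chain, lost transcripts in both mutants: 11 of 12 loci fell in cry1 cry2 (median -0.64) and 9 of 12 in hy5 (median -0.43). On the plastid-total scale 8 were lower and 1 higher in cry1 cry2, and 6 were lower in hy5. The 12 loci include both copies of ndhB in the inverted repeat, which are not independent measurements. ndhJ had 193 and 236 CPM in agb1, 141 and 146.0 CPM in hy5, 104 and 112 CPM in cry1 cry2, and 199.9 and 203 CPM in WT. The 3 genotypes hy5, cry1 cry2 and WT were again separate at ndhJ, with falls of -0.49 ± 0.07 in hy5 (adjusted p = 6.3e-07) and -0.91 ± 0.07 in cry1 cry2 (adjusted p = 1.7e-12). ndhA had 480.2 and 749 CPM in agb1, 406 and 417 CPM in hy5, 383 and 342 CPM in cry1 cry2, and 627 and 483 CPM in WT. Its fall was -0.43 ± 0.11 in hy5, lost without WT replicate 1 (-0.23) and with DESeq2, and -0.61 ± 0.11 in cry1 cry2, lost with DESeq2. ndhF fell in cry1 cry2 (-0.67 ± 0.12, lost with DESeq2) and was not called in hy5 (-0.22 ± 0.12).

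Within the ndhH unit the members did not move together in cry1 cry2. ndhH had 114 and 175 CPM in agb1, 113 and 112 CPM in hy5, 137 and 123 CPM in cry1 cry2, and 139 and 120.2 CPM in WT, so the cry1 cry2 and WT libraries overlapped (0.00 ± 0.10). Its neighbour rps15, for a ribosomal protein, had 16.5 and 23.4 CPM in agb1, 16.0 and 16.3 CPM in hy5, 19.8 and 23.0 CPM in cry1 cry2, and 19.8 and 19.5 CPM in WT (0.12 ± 0.11 in cry1 cry2). The long ycf1 reading frame beside rps15 was also not called in cry1 cry2 (-0.00 ± 0.08), with 459.5 and 566 CPM in cry1 cry2 against 487 and 539.9 CPM in WT. These 3 neighbours span Pltd:122011-129244 on the minus strand, and the next gene along the strand after ndhH is ndhA, the first of 6 loci of that unit that fell in cry1 cry2 (-0.35 to -0.74).

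rbcL, for the large subunit of Rubisco, moved in opposite directions in the 2 mutants. It had 579 and 968 CPM in agb1, 796 and 927 CPM in hy5, 562 and 449 CPM in cry1 cry2, and 735 and 643 CPM in WT. Both hy5 libraries lay above WT and both cry1 cry2 libraries below it. The log2 fold change was 0.32 ± 0.12 in hy5 (adjusted p = 0.036) and -0.45 ± 0.12 in cry1 cry2 (adjusted p = 0.0034), and the direct difference of cry1 cry2 from hy5 was -0.77 ± 0.12 (adjusted p = 7.4e-06). The rise in hy5 was lost without WT replicate 2 (0.23), without hy5 replicate 2 (0.21) and with DESeq2, and the fall in cry1 cry2 was lost without WT replicate 1 (-0.35), with library sizes alone (-0.27) and with DESeq2. Set against the plastid total, rbcL was higher in hy5 (0.58) and was not called in cry1 cry2 (-0.01).

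Ribosomal protein loci fell in both mutants on the scale of all loci. Of 26, 22 fell in cry1 cry2 (median -0.45) and 21 fell in hy5 (median -0.47), and 0 rose in cry1 cry2 and 1 in hy5. On the plastid-total scale the counts were not alike: 12 were lower and 2 higher in hy5 (median -0.22), and 3 were lower and 4 higher in cry1 cry2 (median -0.01). The 26 include both inverted-repeat copies of rpl2, rpl23, rps7 and rps12, which are not independent measurements, so these counts exceed the number of separate genes. rpl14 had 207 and 255 CPM in agb1, 119 and 127 CPM in hy5, 153 and 168 CPM in cry1 cry2, and 193 and 198 CPM in WT. At rpl14 the lowest libraries were those of hy5, and no 2 genotypes overlapped. Its log2 fold change was -0.67 ± 0.07 in hy5 (adjusted p = 4.4e-09) and -0.29 ± 0.07 in cry1 cry2 (adjusted p = 0.00083), and cry1 cry2 stood 0.38 ± 0.07 above hy5 (adjusted p = 4.7e-05). rpl22, the largest ribosomal fall in hy5 (-0.68 ± 0.08), fell by 0.36 in cry1 cry2.

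The cluster that runs from rpl23 and rpl2 to rpoA fell as a block, with 11 of 11 loci called lower in hy5 (-0.35 to -0.68) and in cry1 cry2 (-0.29 to -0.76). Set against the plastid total, 8 of the 11 were lower in hy5 and 1 in cry1 cry2. rpl16, within it, had 346 and 419 CPM in agb1, 234 and 270.2 CPM in hy5, 247 and 273 CPM in cry1 cry2, and 326 and 349 CPM in WT (-0.42 ± 0.07 in hy5 and -0.38 ± 0.07 in cry1 cry2). Its hy5 and cry1 cry2 libraries overlapped each other and lay below WT. rps14, in the psaA unit, fell in cry1 cry2 (176 and 177 CPM in cry1 cry2, against 294 and 276 CPM in WT; -0.69 ± 0.09) and was not called in hy5 (222 and 322 CPM; -0.07 ± 0.09), where the direction turned with the library left out (0.17 and called without hy5 replicate 1, -0.36 and called without replicate 2). rps4 fell only slightly in cry1 cry2 (-0.29 ± 0.11, adjusted p = 0.034, lost at -0.11 without WT replicate 1 and at -0.25 without cry1 cry2 replicate 2, at -0.11 with library sizes alone, and with DESeq2).

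The 4 genes of the plastid-encoded RNA polymerase split by their unit. rpoA, in the ribosomal cluster, had 240.4 and 336 CPM in agb1, 183 and 205 CPM in hy5, 189.8 and 198 CPM in cry1 cry2, and 284 and 263 CPM in WT. It fell by 0.50 in both hy5 and cry1 cry2 (SE 0.09; adjusted p = 3.1e-05 and 1.8e-05). rpoB had 55.3 and 79.4 CPM in agb1, 60.2 and 63.5 CPM in hy5, 65.2 and 66.8 CPM in cry1 cry2, and 73.4 and 60.3 CPM in WT, so that all genotypes overlapped WT. The log2 fold change of rpoB was -0.11 ± 0.10 in hy5 and -0.02 ± 0.10 in cry1 cry2. rpoC1 (-0.08 and 0.08) and rpoC2 (-0.10 and 0.07), in the same unit, were likewise not called in hy5 or in cry1 cry2. Relative to the plastid total rpoB, rpoC1 and rpoC2 were called higher in both mutants (0.15 to 0.19 in hy5, 0.43 to 0.53 in cry1 cry2). accD, for a subunit of acetyl-CoA carboxylase, was not called in hy5 (0.00 ± 0.14) or in cry1 cry2 (-0.15 ± 0.14) and was higher relative to the plastid total in both (0.28 and 0.30). clpP1, for a protease subunit, fell in hy5 (-0.26 ± 0.08, lost at -0.20 without WT replicate 1, at -0.18 without hy5 replicate 1 and with DESeq2) and in cry1 cry2 (-0.47 ± 0.08).

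matK and ycf2 were the loci that rose in both mutants. matK, for an intron maturase inside a transfer RNA gene, had 132 and 224 CPM in agb1, 339.6 and 386 CPM in hy5, 343 and 294 CPM in cry1 cry2, and 246 and 166 CPM in WT. Every hy5 and cry1 cry2 library lay above both WT libraries. The log2 fold change was 0.81 ± 0.14 in hy5 (adjusted p = 2.1e-05) and 0.63 ± 0.14 in cry1 cry2 (adjusted p = 0.00038). The cry1 cry2 value was lost without WT replicate 2 (0.37), and DESeq2 called matK in neither mutant. The hy5 value was called with any 1 library left out.

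ycf2, a very long reading frame with identical copies in the inverted repeat, had 26.3 and 45.0 CPM in agb1, 49.8 and 56.9 CPM in hy5, 56.6 and 47.7 CPM in cry1 cry2, and 40.7 and 28.2 CPM in WT for the first copy. It rose by 0.63 ± 0.14 in hy5 and by 0.59 ± 0.14 in cry1 cry2, and the second copy by 0.58 and 0.51, though reads of the copies cannot be told apart. Without WT replicate 2 neither copy was called in either mutant (0.39 and 0.28 in hy5, 0.35 and 0.22 in cry1 cry2), and the second copy was also lost without hy5 replicate 2 (0.46) and without cry1 cry2 replicate 1 (0.32). DESeq2 called neither copy. With WT replicate 2 left out, 4 plastid loci were called higher in hy5 and 0 in cry1 cry2, and without hy5 replicate 2 the hy5 count was 2.

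**Figure D4:**
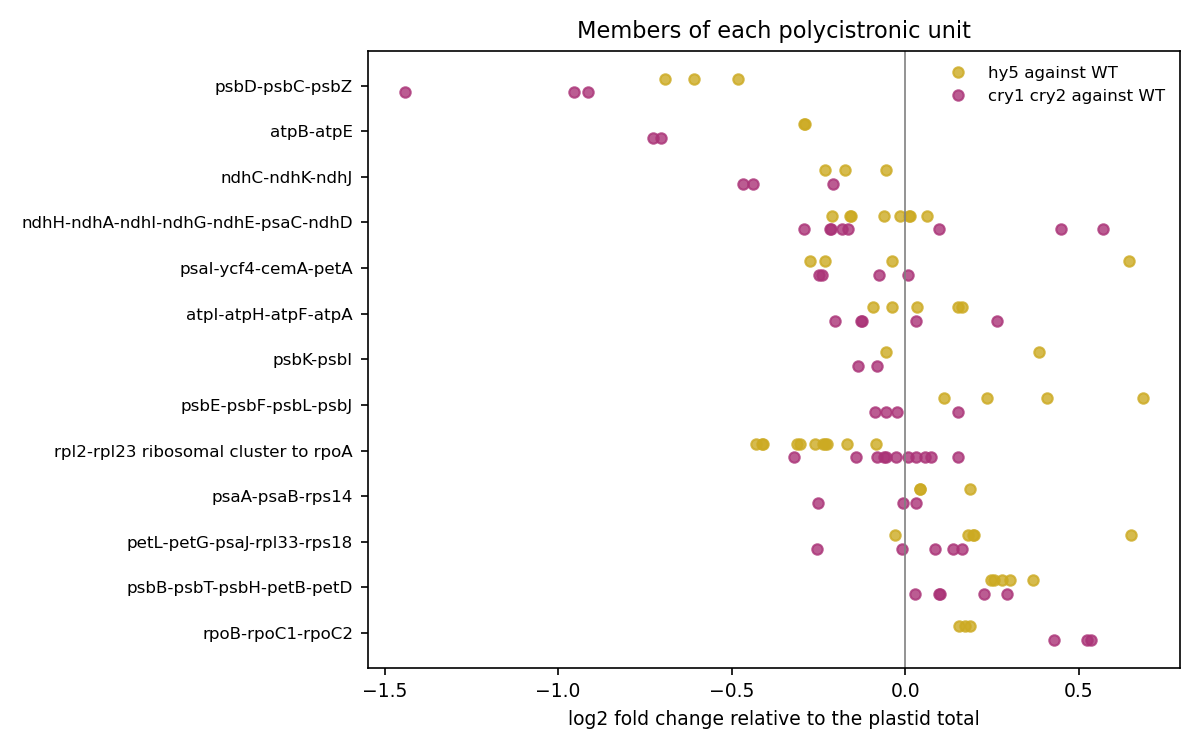
Log2 fold change against WT relative to the plastid total for each member of 13 polycistronic units, in hy5 and in cry1 cry2, with units ordered by their median in cry1 cry2. The psbD unit lies lowest in both (-0.92 to -1.44 in cry1 cry2), the atpB and ndhC units follow in cry1 cry2, and the rpoB unit lies highest in cry1 cry2 (0.43 to 0.53).

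Relative to the plastid total, the units kept distinct positions. In cry1 cry2 the psbD unit was lowest with a median of -0.95, followed by atpB-atpE at -0.71 and ndhC-ndhK-ndhJ at -0.44, with every member of these 3 units called lower. The psbB unit (psbB, psbT, psbH, petB, petD) ran from 0.03 to 0.29 in cry1 cry2, with 2 of 5 called higher, and from 0.25 to 0.37 in hy5, with 5 of 5 called higher. On the scale of all loci none of these 5 was called in hy5 (-0.03 to 0.09). In the psaI unit, psaI was called higher in hy5 (0.64 relative to the plastid total) while its downstream partners ycf4 and cemA were called lower (-0.27 and -0.23).

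The agb1 mutant showed few calls and a wide spread between its libraries. petA (338 and 550.1 CPM in agb1, against 383 and 283 CPM in WT) rose by 0.41 ± 0.12 (adjusted p = 0.019), although the groups overlap. rps14 had 372 and 363 CPM in agb1 against 294 and 276 CPM in WT, with no overlap, and rose by 0.37 ± 0.09 (adjusted p = 0.0032). rpl14 had 207 and 255 CPM in agb1 against 193 and 198 CPM in WT, with no overlap, and rose by 0.24 ± 0.07 (adjusted p = 0.013). In agb1, 86 of 88 loci were higher in replicate 2 than in replicate 1 (median difference 0.58 on the log2 scale), against a median of 0.15 in hy5, -0.09 in cry1 cry2 and -0.27 in WT. Without agb1 replicate 1, 63 loci were called higher (median 0.38), and without agb1 replicate 2, 1 was higher and 8 lower (median -0.18).

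The count of loci higher in agb1 also moved with other libraries left out, to 14 without WT replicate 1, to 11 without either cry1 cry2 replicate and to 5 without either hy5 replicate. Without WT replicate 2, 1 plastid locus was called lower. petA was lost without WT replicate 2 (0.21) and without agb1 replicate 2 (0.02). rps14 was lost without WT replicate 2 (0.32), and rpl14 without either WT replicate (0.22 and 0.26) and without agb1 replicate 2 (0.09). None of the 3 was called with DESeq2. psbD, rbcL, psbA and rpoB were not called (0.29, 0.16, 0.09 and -0.00). At psbM agb1 averaged 357 ± 4.16 CPM and WT 350.4 ± 52.1 CPM (SD, n = 2 each).

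The mutants were also compared with each other. In agb1 against cry1 cry2, 69 plastid loci were higher and 5 lower, beside 28.8% and 29.1% of all loci, and the largest differences were psbZ (1.90 ± 0.14), psbD (1.68 ± 0.11) and psbC (1.63 ± 0.12) on the higher side and matK (-0.85 ± 0.14) and the ycf2 copies (-0.57 and -0.54) on the lower. In agb1 against hy5, 55 were higher and 6 lower, beside 24.2% and 25.7% of all loci, with psbC (1.15 ± 0.12), psbD (1.03 ± 0.11) and psbZ (0.97 ± 0.13) higher and matK (-1.03 ± 0.14) and the ycf2 copies (-0.60 and -0.60) lower. The agb1 against hy5 counts were 36 and 15 without agb1 replicate 2, and the lower count was 1 without agb1 replicate 1 and 3 without hy5 replicate 2. The lower count of agb1 against cry1 cry2 was 1 without agb1 replicate 1, 9 without agb1 replicate 2 and 3 without cry1 cry2 replicate 2. The ycf2 differences were lost without agb1 replicate 1 (-0.25 for each copy against hy5, -0.21 and -0.19 against cry1 cry2), and for the second copy also without hy5 replicate 2 (-0.48) and without cry1 cry2 replicate 1 (-0.34).

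In cry1 cry2 against hy5, 8 plastid loci were higher and 32 lower, that is 40 of 88, beside 43.7% of all loci called in either direction. The lower side was led by psbA, psbM and psaJ, and psbD was lower too (-0.65 ± 0.10, adjusted p = 6.7e-06). The higher side was led by ycf3, a photosystem I assembly factor (0.43 ± 0.15, lost at 0.31 without hy5 replicate 1), rps15 (0.40 ± 0.11, lost at 0.29 without cry1 cry2 replicate 2) and rpl14. The higher count was 4 without hy5 replicate 1 and the lower count 18 without hy5 replicate 2. With library sizes alone, which raise the median of all loci by 0.18 in this comparison, the counts were 19 higher and 17 lower.

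Levels per kilobase of coding sequence kept much the same order across genotypes. psbM was first in agb1, hy5 and WT and second in cry1 cry2, with 3503, 3467, 1252 and 3435 CPM per kb in agb1, hy5, cry1 cry2 and WT. In cry1 cry2 rpl32, for a ribosomal protein, came first with 1466 CPM per kb, against 2151 in WT. These levels divide by coding lengths of 102 bases for psbM and 157 for rpl32, against 1060 for psbD. How reads were counted is not given, so ranks of such short loci may not reflect transcript abundance. psbD was at rank 2 in agb1 and at ranks 4, 6 and 4 in hy5, cry1 cry2 and WT. psbA stood at rank 53 in agb1, 44 in hy5, 69 in cry1 cry2 and 52 in WT. matK stood at rank 69 in agb1, 46 in hy5, 41 in cry1 cry2 and 65 in WT, and the ycf2 copies held ranks 87 and 88 in each genotype. Whether the libraries were selected for polyadenylated RNA, which most plastid transcripts lack, is not stated in the labels.

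The nuclear genes of the plastid transcription machinery fell almost as a set in cry1 cry2. Of 20 listed genes, 19 fell there and none rose (median -0.89), beside 25.8% and 25.6% of all tested loci. In hy5, 9 fell and 1 rose (median -0.16), beside 20.2% and 22.6%. In agb1, 8 rose and 1 fell (median 0.16), beside 8.76% and 8.41%. Calls of these 20 genes are given from the main edgeR fit alone, without DESeq2 or left-out libraries beside them. SIG5, the sigma factor of the psbD light-responsive promoter, had 41.7 and 40.5 CPM in agb1, 36.1 and 33.1 CPM in hy5, 4.82 and 5.67 CPM in cry1 cry2, and 47.5 and 47.6 CPM in WT. No 2 genotypes overlapped at SIG5, and it fell in all 3 mutants (agb1 -0.21 ± 0.07, hy5 -0.46 ± 0.07, cry1 cry2 -3.18 ± 0.10; adjusted p = 0.037, 3.8e-06 and 7.1e-22). The other 5 sigma factors fell in cry1 cry2 by 0.54 (SIG1) to 1.35 (SIG3). In hy5 SIG1 rose (0.19) and SIG2, SIG3, SIG4 and SIG6 were not called, and in agb1 those last 4 rose (0.24 to 0.45).

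RPOTp, the phage-type polymerase of plastids, had 32.4 and 32.1 CPM in agb1, 10.3 and 11.7 CPM in hy5, 8.30 and 8.73 CPM in cry1 cry2, and 22.3 and 19.5 CPM in WT. It rose in agb1 (0.62 ± 0.09) and fell in hy5 (-0.92 ± 0.10) and in cry1 cry2 (-1.30 ± 0.11). RPOTmp, which also serves mitochondria, fell in hy5 (-0.63) and in cry1 cry2 (-0.84). Of the 12 polymerase-associated genes, 11 fell in cry1 cry2 and FSD3, a superoxide dismutase, was not called (-0.26 ± 0.14). FLN1, a fructokinase-like protein, fell most there (-1.65 ± 0.11) and also in hy5 (-1.002 ± 0.10).

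**Figure D5:**
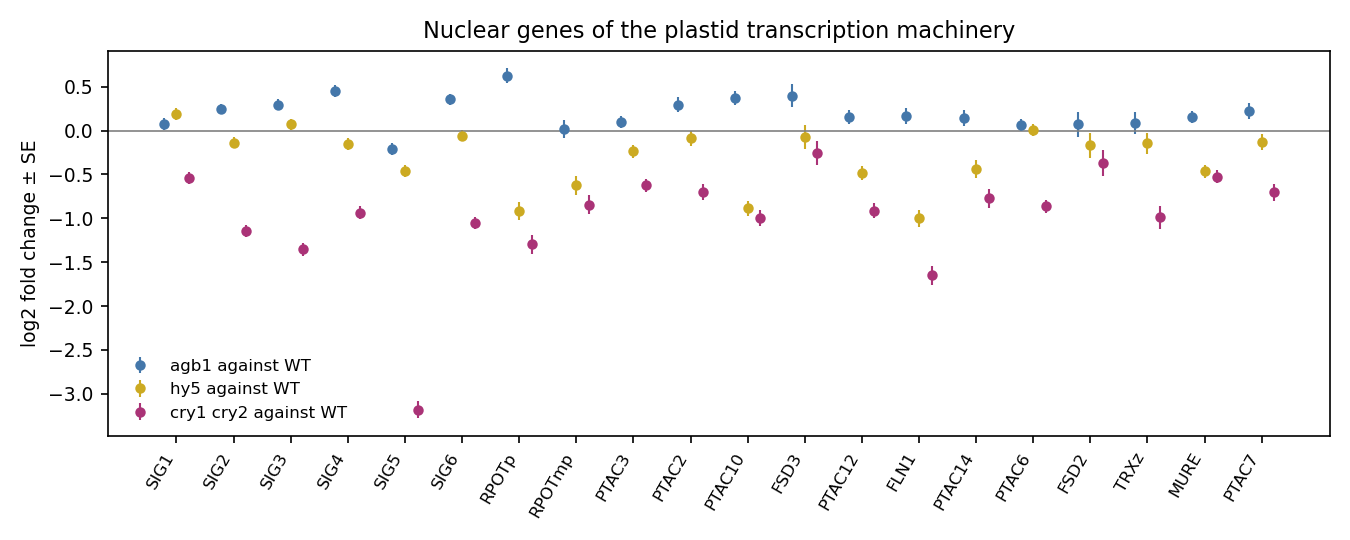
Log2 fold change against WT with its standard error for 20 nuclear genes of the plastid transcription machinery, for agb1, hy5 and cry1 cry2. SIG5 in cry1 cry2 is the lowest point at -3.18, and RPOTp lies at 0.62 for agb1, -0.92 for hy5 and -1.30 for cry1 cry2.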

How the data were processed

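The deposited tables hold, per the file headers, read counts per transcript model and RPKM, which the authors computed; RPKM served only to check coding lengths. Per the submitters' processing notes, Bowtie2 2.2.2 and the TAIR10 build were used; the read counter, its strand setting and its rule for multiple matches were not given in the sources used here. Names of 78 plastid loci were checked by coding length against RefSeq TAIR10.1; 3 rps12 loci matched some exons, 5 loci had another length, and 2, ATCG00870 and ATCG01270, matched no RefSeq gene. Each plastid locus has 1 model; counts of other loci were summed over models.

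Counts were tested with edgeR 4.0.16 (R 4.3.3; quasi-likelihood F test, TMM factors 0.931 to 1.12, filterByExpr with minimum count 10 and total 15) in 1 fit of 8 libraries with 4 residual degrees of freedom and a common biological coefficient of variation of 0.0426. P values were adjusted by Benjamini-Hochberg over 20695 loci and called under 0.05. Standard errors derive from the F statistic. The second scale used the plastid total as library size with TMM over plastid loci, for plastid loci alone. The labels say biological replicate and no more, so p values refer to these samples alone. The spread behind them was not estimated from each locus by itself. The fit drew it toward a trend over all tested loci, most of them nuclear. Standard errors and p values may therefore understate the spread of plastid loci between libraries. In agb1 that spread had a median of 0.58 on the log2 scale between the 2 libraries. Replicate counts differed by more than sampling noise in each genotype (chi-square over its degrees of freedom 2.34 to 3.44). At the smallest total, 3 reads equal 0.192 CPM.

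The rule for the loci reads only their identifiers, but this set of genes was taken up, and the lists drawn, with earlier results of these data known. Loci were named by rule: 22 set genes, the highest level and lowest p in each function group, and the 5 largest called changes per direction (3 between mutants) at a mean of at least 5 CPM. atpE, ndhC, ndhH, ndhK, cemA, rpl32, petN and the members of the psbB unit other than psbB and petB, and rps15, atpI, psaI, ycf4 and rpl22 outside the comparison whose rule picked them, were added once values had been seen. On simulated data, the fit recovered 70% (agb1), 78% (hy5) and 76% (cry1 cry2) of 50 genes changed 1.5-fold, and 92%, 92% and 88% of 50 changed 2-fold. Those genes were drawn from all tested loci and varied independently. The figures therefore do not cover shifts shared by the plastid loci of a library, as between the agb1 libraries. Alternatives were RLE scaling, library sizes alone, scaling from nuclear loci, DESeq2 1.42.0, no filter, at least 5 CPM in 2 libraries, only the genotypes compared, a replicate block, the model with most reads, and each library left out.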

Additional observations from a re-analysis of the deposited data

How the results depend on the processing

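For the named plastid loci, 2034 comparisons of a value with an alternative were made: 1727 kept direction and call, 100 lost the call, 106 gained it, 15 changed sign with a call on either side, and 86 changed sign with no call on either side. Left-out libraries gave these ranges of plastid loci called higher and lower: agb1 against WT 1 to 63 and 0 to 8, hy5 against WT 2 to 10 and 29 to 52, cry1 cry2 against WT 0 to 4 and 41 to 68, agb1 against hy5 36 to 70 and 1 to 15, agb1 against cry1 cry2 50 to 77 and 1 to 9, and cry1 cry2 against hy5 4 to 9 and 18 to 42. The median fold change ranged from -0.18 to 0.38 in agb1, from -0.37 to -0.086 in hy5 and from -0.53 to -0.31 in cry1 cry2, and the difference in plastid share from -0.289 to 0.608, from -0.632 to -0.452 and from -0.792 to -0.616 percentage points. Leaving psbA or atpB out of the sum kept the direction of the share.

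With agb1 against WT, loci higher numbered 5 with RLE scaling, 0 with DESeq2, 33 with no filter and 9 in a fit of these genotypes alone; loci lower numbered 2 with no filter and 2 relative to the plastid total. Relative to the plastid total the higher and lower counts were 28 and 26 for hy5, 19 and 23 for cry1 cry2, 25 and 31 for agb1 against hy5, 25 and 23 for agb1 against cry1 cry2, and 19 higher for cry1 cry2 against hy5; the medians were 0.0076 in hy5 and -0.0089 in cry1 cry2, which follows from that scale's construction. With DESeq2 they were 2 and 24 for hy5, 0 and 35 for cry1 cry2, 34 and 2 for agb1 against hy5, 1 lower for agb1 against cry1 cry2, and 2 and 13 for cry1 cry2 against hy5. Library sizes alone raise the median of all loci by 0.18 in cry1 cry2. They gave 7 higher, 45 lower and a median of -0.28 there, against 3, 64 and -0.46 in the main fit. The same setting gave 9 lower for agb1 against cry1 cry2, and 19 higher and 17 lower for cry1 cry2 against hy5. With no filter, 51 were lower for cry1 cry2 against hy5, and with the model with most reads 5 were higher. The cause of these moves was not tested.

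Relative to the plastid total, the sign changed with a call on either side for rpoB (0.15), rpoC1 (0.19), rpoC2 (0.17) and clpP1 (0.0038) in hy5, and for psbB (0.10), psaA (0.032), petB (0.29), rpoB (0.43), rps4 (0.16), rpl16 (0.058), accD (0.30) and the full-length ycf1 (0.43) in cry1 cry2. With no call on either side it changed there for 10 values in agb1 and 6 more in hy5. With libraries left out, the sign changed with a call in agb1 for psbA (-0.28 to 0.39) and rpoC1 (-0.34 to 0.42), lowest without agb1 replicate 2, where 21 of the 29 loci named in agb1 changed sign, and in hy5 for rps14 (-0.36 to 0.17), highest without hy5 replicate 1. With the replicate block, 5 loci were higher in agb1, 9 higher and 43 lower in hy5, and 3 higher and 64 lower in cry1 cry2. Samples share only a replicate number: deviations of same-numbered libraries correlated at -0.052 to 0.086 over all loci, and over the plastid loci at -0.784 (agb1 with WT) to 0.751 (cry1 cry2 with WT), with no common sign. Each genotype has 2 libraries, which limits every test here.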

Other observations

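Genes of the inverted repeat are listed under 2 loci each. For rpl2, rpl23, ycf2, ndhB, rps7 and rps12 the ratio of reads of the first to the second copy stayed between 0.801 and 1.05 in all libraries, and the fold changes of copies lay close to each other (for ndhB -0.54 and -0.59 in hy5, and -0.27 and -0.31 in cry1 cry2; for rpl23 -0.76 and -0.80 in cry1 cry2). The coding sequences of the copies are identical in RefSeq TAIR10.1, so the 2 entries of a gene are not independent measurements.

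ATCG00870 and ATCG01270 had few reads. ATCG00870 had 1.64 and 2.75 CPM in agb1, 3.28 and 4.15 CPM in hy5, 2.55 and 3.46 CPM in cry1 cry2, and 3.08 and 2.45 CPM in WT, and was not called in any mutant. Over 2 libraries each, ATCG01270 averaged 1.58 CPM in agb1, 2.54 CPM in hy5, 2.63 CPM in cry1 cry2 and 1.96 CPM in WT, and was not called either. petN, a cytochrome b6f subunit, was the lowest plastid locus in reads, with 0.846 and 1.24 CPM in agb1, 0.997 and 1.62 CPM in hy5, 0.996 and 1.08 CPM in cry1 cry2, and 1.52 and 1.23 CPM in WT.

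The share of mitochondrial loci was higher than in WT in hy5 and cry1 cry2, where that of plastid loci was lower. It was 0.0284% and 0.0390% in agb1, 0.0459% and 0.0599% in hy5, 0.0554% and 0.0541% in cry1 cry2, and 0.0380% and 0.0316% in WT, so that both hy5 and both cry1 cry2 libraries lay above WT (exact permutation p = 0.333 each, the smallest possible, n = 2). The 2 shares did not run opposite between single libraries. Replicate 1 of agb1 lay below both WT libraries in plastid share (2.103%) and in mitochondrial share. Within each genotype the library with the higher plastid share also had the higher mitochondrial share.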
